A study of Mus musculus with 16 samples.

Results

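The genes described are a module of core myeloid genes that act in signalling, adhesion and phagocytosis, fixed as 38 mouse symbols. They were proposed because many of them were lower in epididymal white fat of sunitinib-treated mice, so their values in that tissue are given as a description without a test. A row under the same symbol was present for 36 of the 38 in each of the 4 tissue tables, which hold 24934 distinct rows together. Emr1, which encodes a macrophage surface receptor of the adhesion class, and Spi1, which encodes the myeloid transcription factor PU.1, had no row under these symbols in the tables used here.

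RNA sequencing was done on total RNA from epididymal white fat, inguinal white fat, brown fat and liver of C57BL/6 mice aged 24 weeks. The mice had received sutent (sunitinib, a drug that blocks several receptor tyrosine kinases, the receptor for colony-stimulating factor 1 among them) or vehicle. Each tissue had 2 sunitinib and 2 vehicle libraries, 16 in all, and the series states 4 sunitinib and 4 vehicle mice. The labels give no dose, duration, sex or diet, and do not say which mouse or mice a library came from, so the tests measure the spread between these libraries only.

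Macrophages and other myeloid cells enter tissues with the help of leukocyte integrins, take up opsonised particles through Fc and complement receptors, and reshape actin around the particle. The phagosome that forms is then acidified and supplied with reactive oxygen by the NADPH oxidase. In adipose tissue, macrophages gather around dying adipocytes and take up their lipid, and those that carry the integrin CD11c are known from expanded fat. A list set 12 of the 36 genes apart as also made by lymphocytes, most of them for actin and antigen receptor signalling. It need not be complete, and whether lymphocytes make the other 24 was not tested.

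All values are regularised log2 values (rlog) that the authors made separately for each tissue, shrunk towards each gene's mean, so differences of low genes are understated and the read depth is unknown. Differences are sunitinib minus vehicle on that log2 scale ± SE, with 2 libraries per group. Defining genes of the labelled tissues were found in them. Ucp1, of brown adipocytes, was at 16.9 and 16.8 in sunitinib and 16.7 and 16.5 in vehicle brown fat, and Alb, of hepatocytes, at 20.1 and 20.1 in sunitinib and 20.3 and 20.3 in vehicle liver. The mesothelial gene Upk3b was at 9.42 and 9.18 in sunitinib and 8.82 and 8.37 in vehicle epididymal fat. Some libraries stood apart. In inguinal fat, sunitinib replicate 2 carried the highest levels of lymphocyte genes. There the median of 9 B cell markers was 4.52 above the vehicle mean and that of 12 T cell markers 3.84. Sunitinib replicate 1 was raised too, by less. Both sunitinib libraries lay above both vehicle libraries in 9 of 9 B cell and 9 of 12 T cell markers (24% of all genes). In brown fat, vehicle replicate 2 held the most skeletal muscle RNA. In epididymal fat both sunitinib libraries held more epithelial RNA. The summed level of 9 epithelial and epididymal duct markers was 13.3 and 11.8 in the sunitinib and 9.85 and 10.7 in the vehicle libraries.

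The promoters of some of the genes hold a motif that the choice of members did not use. PU.1, the product of Spi1, is known to bind purine-rich sites with the letters AGGAAGT, and these were searched on both strands in RefSeq promoter windows of GRCm38.p6 that run from 250 bases before to 50 bases after an annotated start. Windows were at hand for 30 of the module's genes. The site was present in 10 of the 30 genes (33.3%), against 10.7% of 27025 genes. The shorter ETS core GGAAG, which lies within it, was present in 26 of the 30 (86.7%), against 73.9% of all genes. A match is a run of letters and not a measured binding site. The 10 genes were C1qb, C1qc, Cd53, Dock2, Fcgr1, Myo1f, Ptprc, Vav1, Was and Wdfy4. The stretches below, from 150 bases before the start to 30 bases from it on, show where the site lies in 3 signalling and actin genes and 2 opsonin and Fc receptor genes, with the matched letters in capitals and the gene's own strand 5′ to 3′. Dock2 (chr11:34783876-34784055 (minus strand)), Vav1 (chr17:57278950-57279129 (plus strand)) and Was (chrX:8090462-8090641 (minus strand)) encode actin regulators, and their sites begin 4, 10 and 24 bases before the start. C1qb (chr4:136886171-136886350 (minus strand)) encodes a complement opsonin and Fcgr1 (chr3:96293940-96294119 (minus strand)) an Fc receptor, and their sites begin 53 and 61 bases before it. Mpeg1 (chr19:12460620-12460799 (plus strand)), a gene with a wide difference in epididymal fat, has no match in its window and is shown for contrast.
Dock2: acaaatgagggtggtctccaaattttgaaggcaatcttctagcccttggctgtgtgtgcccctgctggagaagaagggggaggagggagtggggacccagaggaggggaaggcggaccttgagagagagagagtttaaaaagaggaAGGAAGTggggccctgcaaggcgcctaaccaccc
Vav1: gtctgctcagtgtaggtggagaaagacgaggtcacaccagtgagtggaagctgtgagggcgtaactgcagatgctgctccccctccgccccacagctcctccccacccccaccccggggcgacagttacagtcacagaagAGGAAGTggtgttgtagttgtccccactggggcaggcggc
Was: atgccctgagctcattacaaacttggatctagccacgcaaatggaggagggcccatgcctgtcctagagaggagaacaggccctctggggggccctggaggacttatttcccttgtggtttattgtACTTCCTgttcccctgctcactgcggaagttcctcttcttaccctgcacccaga
C1qb: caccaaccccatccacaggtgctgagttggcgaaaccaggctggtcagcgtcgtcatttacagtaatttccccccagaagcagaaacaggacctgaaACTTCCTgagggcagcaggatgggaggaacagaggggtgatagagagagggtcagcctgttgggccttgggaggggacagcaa
Fcgr1: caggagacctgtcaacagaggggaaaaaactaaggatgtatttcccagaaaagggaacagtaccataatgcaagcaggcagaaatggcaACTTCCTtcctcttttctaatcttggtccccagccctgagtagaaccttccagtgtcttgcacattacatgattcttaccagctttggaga
Mpeg1: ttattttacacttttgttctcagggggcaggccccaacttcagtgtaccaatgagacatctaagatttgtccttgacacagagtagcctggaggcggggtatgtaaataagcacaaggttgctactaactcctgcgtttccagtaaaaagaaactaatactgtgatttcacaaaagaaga
In Dock2 and Vav1 the site reads AGGAAGT on the gene's own strand, and in Was, C1qb and Fcgr1 it lies on the other strand and reads ACTTCCT here.

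In epididymal white fat the module was lower in the sunitinib libraries almost throughout. Of its 36 genes, 35 had both sunitinib libraries below both vehicle libraries, where 26.8% of all 15526 genes tested did, and Fgr was the exception. The opposite order was found in 0 of the 36, against 27% of all genes. The limma fit over all genes put 30 of the 36 past an adjusted p of 0.05 in the lower direction and 0 in the higher, against 2.06% and 0.277% of all genes. Before adjustment the counts below 0.05 were 34 lower and 0 higher, against 11.9% and 8.14% of all genes. Since the genes were chosen on this contrast, these counts are a description. The median difference was −0.82 over the 36 genes and 0.01 over all genes tested. Across the 36 genes, which are not independent, wider falls went with higher vehicle levels (Pearson r = −0.48, Spearman rho = −0.47). A fit over the 11113 genes tested in all 4 tissues put 12 of its 32 module genes past the threshold (2.37% of its genes lower). With vehicle replicate 1 or vehicle replicate 2 left out, 0 genes of the whole table passed. The spread is then taken from the sunitinib pair, whose values differed with an SD of 0.262 over genes, against 0.148 for the vehicle pair. In tissue RNA, fewer cells of a type and less RNA per cell cannot be told apart.

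**Figure D1:**
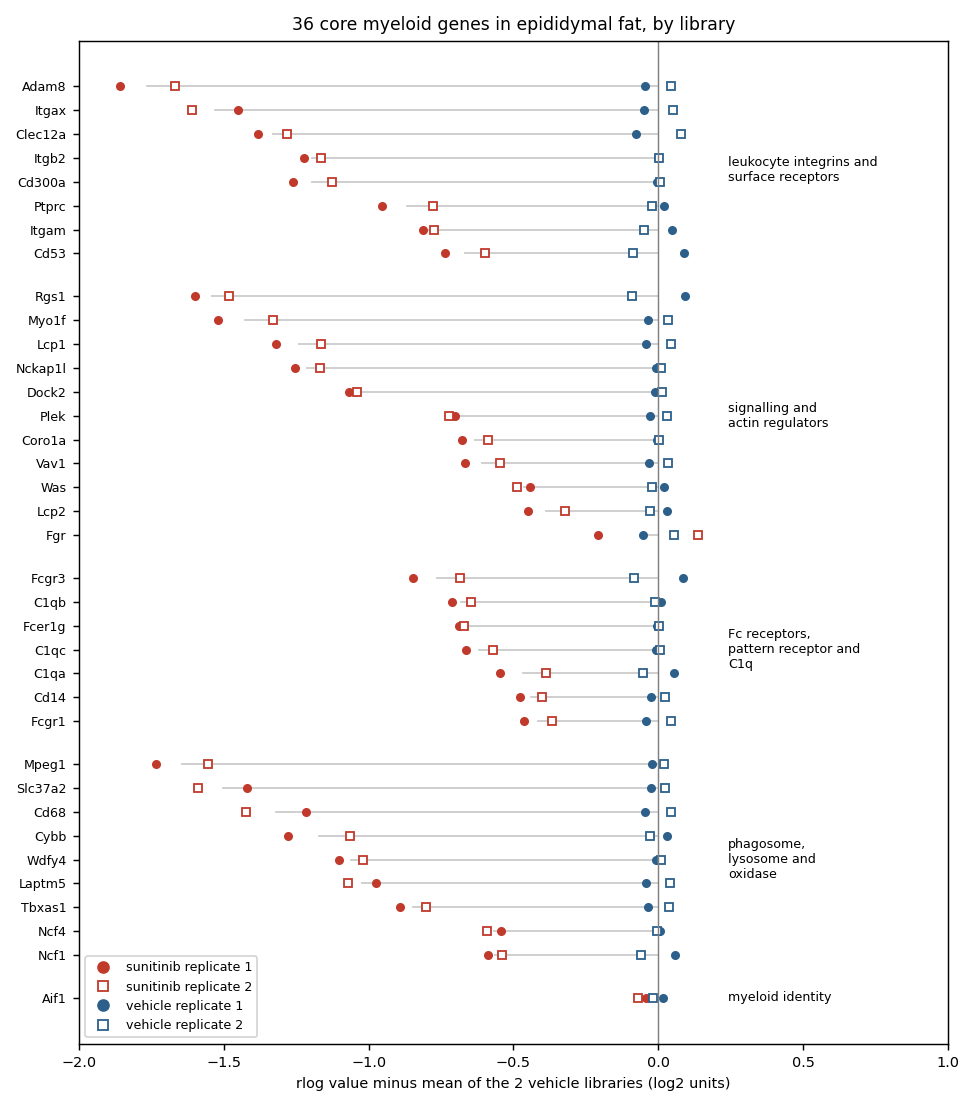
Values of the 36 core myeloid genes in the 4 epididymal fat libraries, as rlog minus the mean of both vehicle libraries (log2 units, horizontal axis), grouped by role. Red marks are sunitinib and blue marks vehicle libraries, circles replicate 1 and squares replicate 2; the grey line joins the means, and only Fgr has overlapping groups.

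Among the 8 leukocyte integrins and surface receptors the median difference was −1.19. Itgax encodes CD11c, the integrin alpha chain of dendritic cells and of macrophages in expanded fat. It was at 8.74 and 8.58 in the sunitinib libraries, against 10.1 and 10.2 in the vehicle libraries (−1.53 ± 0.08). Itgb2, the shared beta chain CD18, was at 9.77 and 9.83 with sunitinib and at 10.994 and 10.996 with vehicle (−1.19 ± 0.06). Itgam, which encodes the alpha chain CD11b of monocytes, macrophages and neutrophils, was at 9.48 and 9.52 with sunitinib and at 10.3 and 10.2 with vehicle (−0.79 ± 0.06). The difference of the CD11c chain was thus wider than that of the CD11b chain, in values from the same libraries. Adam8, a membrane metalloprotease of myeloid cells, had the widest difference of the module, with 8.597 and 8.788 in sunitinib and 10.4 and 10.5 in vehicle libraries (−1.76 ± 0.09, or 0.294 times the vehicle value). Clec12a, an inhibitory lectin that senses uric acid crystals, was at 7.55 and 7.65 with sunitinib and 8.85 and 9.01 with vehicle (−1.33 ± 0.08). In none of these genes did the groups overlap. Cd300a, an inhibitory receptor for lipids of dying cells, was 1.19 ± 0.07 lower. Ptprc, the phosphatase CD45 of all leukocytes, was at 8.70 and 8.88 with sunitinib and 9.68 and 9.64 with vehicle (−0.87 ± 0.08). Cd53, a leukocyte tetraspanin, had the narrowest difference of this role at −0.67 ± 0.09.

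The 11 signalling and actin regulators had a median of −0.71 and the widest range of any role. Rgs1, which damps G-protein signals of chemokine receptors, was at 6.74 and 6.86 in sunitinib and 8.43 and 8.25 in vehicle libraries (−1.54 ± 0.09). Myo1f, a class I myosin of leukocytes, was at 8.48 and 8.67 with sunitinib and 9.962 and 10.032 with vehicle (−1.43 ± 0.09). Lcp1, the actin bundler L-plastin, was at 10.5 and 10.7 with sunitinib and 11.8 and 11.9 with vehicle (−1.24 ± 0.08). Nckap1l and Dock2 act in the step from Rac to branched actin, as HEM1 of the WAVE complex and as a guanine nucleotide exchange factor for Rac. Nckap1l was at 9.33 and 9.42 with sunitinib and 10.6 and 10.6 with vehicle (−1.21 ± 0.06), and Dock2 at 8.92 and 8.94 with sunitinib and 9.975 and 9.998 with vehicle (−1.06 ± 0.06). The remaining genes of this role had narrower differences. Vav1, a further exchange factor, was 0.61 ± 0.08 lower, and Was, the activator of the Arp2/3 complex, 0.47 ± 0.07 lower. Lcp2, the adaptor SLP-76, was 0.39 ± 0.08 lower. Coro1a, an actin-binding coronin, stood at −0.63 ± 0.06, and Plek, a substrate of protein kinase C, at −0.71 ± 0.06. Fgr, a Src-family kinase of myeloid cells, was at 6.45 and 6.80 with sunitinib and at 6.61 and 6.72 with vehicle (−0.04 ± 0.13). The sunitinib libraries of Fgr lay on either side of the vehicle libraries, and its difference was smaller than its SE.

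The 7 Fc receptor, C1q and pattern receptor genes had a median of −0.62, with a narrow range. Fcgr3, a low-affinity IgG receptor, was at 9.62 and 9.78 in sunitinib and 10.6 and 10.4 in vehicle libraries (−0.77 ± 0.09). Fcer1g, the signalling chain that this receptor needs, was at 9.33 and 9.35 with sunitinib and 10.013 and 10.022 with vehicle (−0.68 ± 0.06). Fcgr1, the high-affinity IgG receptor, was at 6.87 and 6.97 with sunitinib and 7.29 and 7.38 with vehicle (−0.42 ± 0.08). All 3 chains of C1q, the opsonin that starts the classical complement pathway and is made by macrophages, were lower. C1qa stood at −0.47 ± 0.09, C1qb at −0.68 ± 0.07 and C1qc at −0.62 ± 0.07. Cd14, the co-receptor for lipopolysaccharide, was at 7.83 and 7.91 with sunitinib and 8.28 and 8.33 with vehicle (−0.44 ± 0.07). No gene of this role reached the size of the median integrin difference.

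The 9 phagosome, lysosome and oxidase genes had a median of −1.06. Mpeg1, the pore-forming protein perforin-2 of phagocytic vesicles, was at 10.1 and 10.3 in sunitinib and 11.8 and 11.8 in vehicle libraries (−1.64 ± 0.08, or 0.320 times the vehicle value). Slc37a2, a sugar-phosphate carrier of macrophages, was at 8.24 and 8.07 with sunitinib and 9.63 and 9.68 with vehicle (−1.50 ± 0.08). Cd68, the lysosomal membrane protein macrosialin, was at 10.1 and 9.88 with sunitinib and 11.3 and 11.4 with vehicle (−1.32 ± 0.09). In these genes the gap between the groups was several times the gap within them. The oxidase split by subunit. Cybb, its catalytic membrane chain gp91phox, was at 8.57 and 8.79 with sunitinib and 9.88 and 9.82 with vehicle (−1.17 ± 0.09). The cytosolic subunits p47phox and p40phox differed less, with Ncf1 at −0.56 ± 0.07 and Ncf4 at −0.57 ± 0.07. Wdfy4, which is needed for cross-presentation in dendritic cells, was 1.06 ± 0.07 lower. Laptm5, a lysosomal protein of leukocytes, was 1.02 ± 0.07 lower and Tbxas1, thromboxane synthase, 0.85 ± 0.07 lower. Aif1, the actin-binding protein IBA1 of macrophages, was at 7.02 and 6.99 with sunitinib and 7.08 and 7.04 with vehicle (−0.06 ± 0.07), a difference smaller than its SE.

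Widely expressed relatives, which many cell types make, were set beside the members in the same libraries. Over 18 pairs in epididymal fat the member was lower than its relative in 17. The median difference was −1.04 for the members and −0.09 for the relatives. Since the members were chosen on falls in this tissue, that order is a description. Elsewhere the member was lower in 10 of 16 pairs in brown fat, 5 of 17 in inguinal fat and 10 of 17 in liver. Slc37a2 stood at −1.50 while Slc37a4, the glucose-6-phosphate carrier of the endoplasmic reticulum, was at 0.38. Lcp1 stood at −1.24 while Pls3, a plastin of non-blood cells, was at 0.21. Adam8 stood at −1.76 and Adam17, a widely expressed sheddase, at −0.35, and Nckap1l at −1.21 while Nckap1, its widely expressed relative in the WAVE complex, was at 0.06. These were the 4 widest gaps. Of all 26 listed relatives tested in this tissue, 20 were negative and 6 positive, with a median of −0.12. Both sunitinib libraries lay below both vehicle libraries in 14 of the 26 (26.8% of all genes) and above them in 4 (27% of all genes). Of the relatives, Myo1e, a class I myosin, passed the test over all genes in this tissue at −0.98 ± 0.06 beside −1.43 for Myo1f. In the pair of Fgr with Fyn, a widely expressed Src-family kinase, the order was the other way, with −0.04 for Fgr and −0.31 for Fyn.

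**Figure D2:**
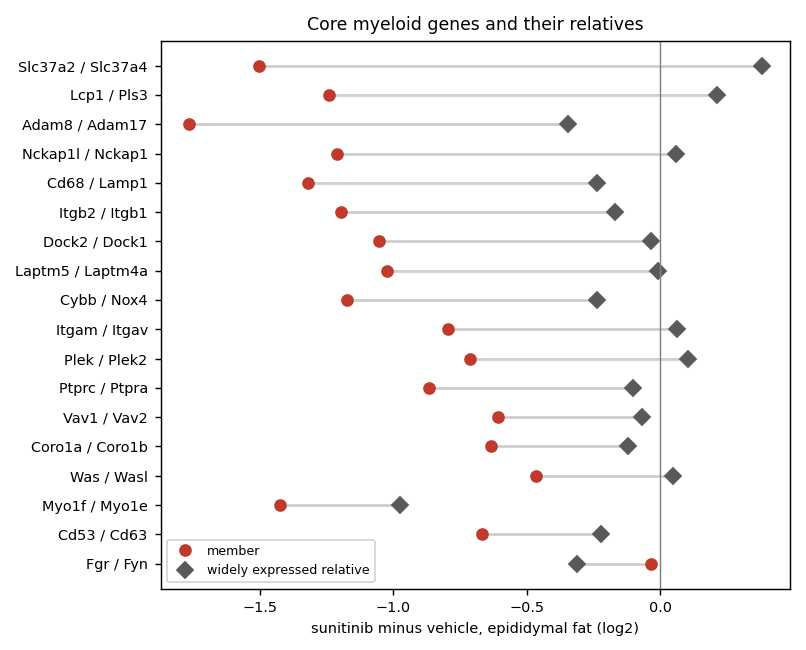
Difference between sunitinib and vehicle in epididymal fat (log2, horizontal axis) for 18 core myeloid genes (red circles) and a widely expressed relative of each (grey diamonds), 2 libraries per group. The members, which were chosen on this contrast, lie left of their relatives in 17 pairs, and the gap is widest for Slc37a2 and Slc37a4.

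Other genes of the same pathways, taken from lists written down for these roles, were lower in the same libraries in part. The lists were chosen with results of these data known, so their counts are given as a description. Among all genes tested in epididymal fat, 2.06% passed in the lower direction and 0.277% in the higher. Of 34 further signalling and actin genes tested in epididymal fat, 34 were negative and 18 passed in the lower direction, with a median of −0.51. Tyrobp, the adaptor DAP12 of myeloid receptors, was at 9.92 and 10.1 with sunitinib and 11.1 and 11.1 with vehicle (−1.11 ± 0.07). Of 16 further oxidase and lysosome genes 9 passed in the lower direction, with a median of −0.68. They included Atp6v0d2, a proton pump subunit, at −1.86 ± 0.06, and Slc11a1, the metal transporter NRAMP1 of phagosomes, at −0.88 ± 0.07. Of 23 further phagocytic receptors and opsonins 7 passed, with a median of −0.38, among them Clec7a, the beta-glucan receptor dectin-1, at −0.99 ± 0.06, and C3ar1, the C3a receptor, at −1.17 ± 0.09. Of 19 further integrin and adhesion genes 4 passed, with a median of −0.35. Itgad, the alpha chain CD11d, was at 6.05 and 6.14 with sunitinib and 7.12 and 7.21 with vehicle (−1.07 ± 0.08), and Selplg, the selectin ligand PSGL-1, stood at −0.79 ± 0.06. Of 18 myeloid transcription factors and growth factor receptors 7 passed, with a median of −0.19. Irf8, a transcription factor of monocytes and dendritic cells, was at 8.08 and 8.19 with sunitinib and 9.17 and 9.40 with vehicle (−1.15 ± 0.10). None of these lists had a gene past the test in the higher direction.

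Markers of other cells gave values of their own beside the module. The 14 macrophage markers with a row, of which Cd68 is also a member, were summed in epididymal fat. Their levels were 14.3 and 14.4 in the sunitinib and 15.1 and 15.0 in the vehicle libraries. Of the 13 tested, 9 were negative and 4 positive, with a median of −0.38. In the lower direction 5 passed and in the higher 0, against 2.06% and 0.277% of all genes. Lyve1, a hyaluronan receptor of vessel-associated macrophages, was at 10.1 and 10.3 with sunitinib and 9.82 and 9.69 with vehicle, and Mertk, a receptor for dying cells, at 10.2 and 9.96 with sunitinib and 9.79 and 9.85 with vehicle. Trem2, a lipid-sensing receptor, was at 8.75 and 8.54 with sunitinib and 10.2 and 10.4 with vehicle. Clec4f, which marks Kupffer cells of the liver, was under the filter here, at 0.67 and 0.71 with sunitinib and 0.67 and 0.68 with vehicle. The 10 dendritic cell markers had a median of −0.22 and 2 of them passed, Clec10a at −0.49 and Flt3 at −0.35. B and T cell markers lay closer together. The 9 B cell genes with a row summed to 7.80 and 7.81 with sunitinib and 7.79 and 7.78 with vehicle. For 12 T cell genes the sums were 9.03 and 9.17 with sunitinib and 9.23 and 9.20 with vehicle. Of these, 3 B cell and 3 T cell genes were under the filter on low values. The 5 natural killer cell markers tested had a median of −0.09 and 0 passed. In all 5, both sunitinib libraries lay below both vehicle libraries (26.8% of all genes). The module itself summed to 14.5 and 14.6 in the sunitinib and 15.5 and 15.5 in the vehicle libraries. Proliferation genes were lower too, 6 of 10 past the test (2.06% of all genes) with a median of −0.54. They summed to 9.71 and 9.92 in the sunitinib and 10.6 and 10.6 in the vehicle libraries. The 12 endothelial markers were all negative, with a median of −0.38 and 0 past the test. In 10 of them both sunitinib libraries lay below both vehicle libraries (26.8% of all genes). They summed to 12.85 and 12.9 with sunitinib and 13.1 and 13.5 with vehicle. Monocyte and neutrophil markers had medians near 0 but spread widely. They ran from −0.65 to 1.53 for monocyte and from −0.50 to 1.22 for neutrophil markers. The 8 monocyte markers tested were negative in 4 and positive in 4. With a row were 9 monocyte markers, which summed to 13.6 and 13.6 with sunitinib and 13.8 and 13.6 with vehicle. The 9 neutrophil markers tested had a median of 0.01 and were positive in 6. With a row were 13 neutrophil markers, which summed to 10.3 and 11.1 with sunitinib and 9.64 and 10.4 with vehicle. The epithelial markers named above were higher with sunitinib, and 1 library was extreme, with Crisp1 of the epididymal duct at 12.7 in sunitinib replicate 1 and 5.98 in sunitinib replicate 2, against 6.21 and 6.05 in the vehicle libraries. With sunitinib replicate 1 left out, the module's median was −0.78 and 30 genes passed, while the remaining sunitinib library still had a higher epithelial sum than the vehicle libraries. The part of these other cells in the module's values was not tested.

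In vehicle mice the module was highest in epididymal fat for 36 of 36 genes, and inguinal fat came next for all 36. The vehicle libraries of these fats did not overlap for any of them. Liver stood above brown fat in 21 genes and brown fat above liver in 15, and the last places overlapped for the 3 C1q genes. Each tissue was normalised on its own, so levels across tissues are a description. The share of all genes with the same order and separation was not counted. The medians of the module were 9.75 in epididymal fat, 8.65 in inguinal fat, 4.83 in liver and 4.71 in brown fat. Over the 16889 genes in all tables they were 7.53 in epididymal fat, 7.49 in inguinal fat, 6.07 in liver and 6.35 in brown fat. Adam8 spanned the widest range, with a vehicle mean of 10.5 in epididymal fat, 8.64 in inguinal fat, 4.44 in brown fat and 1.93 in liver. Lcp1 had the narrowest gap between inguinal fat, at 10.7, and liver, at 10.3, with brown fat at 7.30. Mpeg1 also lay higher in liver, at 8.82, than in brown fat, at 6.80.

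**Figure D3:**
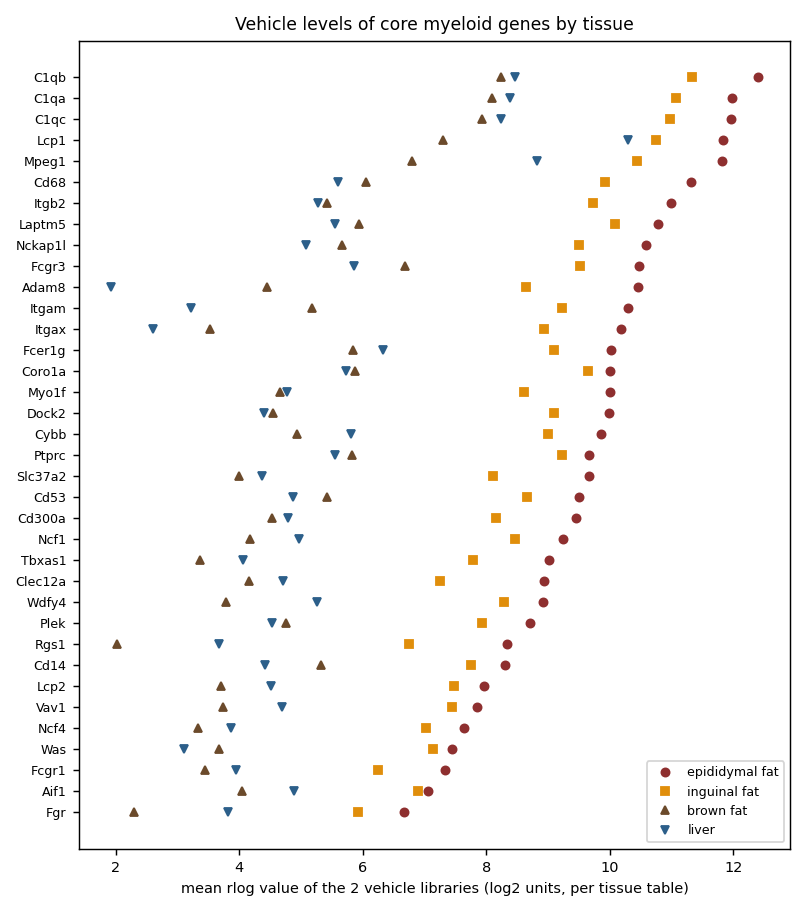
Mean rlog value of both vehicle libraries (log2 units, horizontal axis; each tissue table normalised on its own) for the 36 core myeloid genes in epididymal fat (dark red circles), inguinal fat (orange squares), brown fat (brown triangles pointing up) and liver (blue triangles pointing down). The epididymal value is the rightmost in every gene and the inguinal value comes next, while Lcp1 and Mpeg1 stand out in liver.

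In inguinal white fat 0 of the 36 genes passed limma's test in either direction, against 0% of all 14916 genes tested. Without adjustment, 6 were lower and 0 higher at p below 0.05, against 8.8% and 3.88% of all genes. Of the 36, 19 were negative and 17 positive with a median of −0.04, 10 had both sunitinib libraries below both vehicle libraries (26.4% of all genes), 0 lay above them (24% of all genes), and 26 overlapped. The 6 lower genes were the C1q genes, Fcgr3, Tbxas1 and Cd300a. C1qb was at 10.9 and 10.9 in the sunitinib and 11.4 and 11.3 in the vehicle libraries (−0.43 ± 0.09, adjusted p = 0.313 in limma). C1qa was at 10.7 and 10.7 with sunitinib and 11.1 and 11.1 with vehicle (−0.38 ± 0.09), and C1qc at 10.55 and 10.61 with sunitinib and 11.009 and 10.955 with vehicle (−0.40 ± 0.09). Fcgr3 was at 9.01 and 8.75 with sunitinib and 9.64 and 9.39 with vehicle (−0.64 ± 0.15, adjusted p = 0.331 in limma). Tbxas1 was at 7.23 and 6.90 with sunitinib and 7.98 and 7.59 with vehicle (−0.72 ± 0.22, adjusted p = 0.361 in limma), the most negative of the module. In these genes the sunitinib libraries lay together below the vehicle libraries. In a fit over the 11113 genes tested in all 4 tissues, 7 of its 32 module genes passed in the lower direction, these without C1qa and with Cd68 and Fcgr1 added. That fit called 11.1% of its genes lower and 10.8% higher.

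Most of the remaining genes were higher in sunitinib replicate 2, the library with the highest lymphocyte genes, than in replicate 1. The part of lymphocytes in this was not tested. Ptprc was at 9.13 in sunitinib replicate 1 and 11.96 in replicate 2, against 9.31 and 9.15 in the vehicle libraries (1.32 ± 0.98, adjusted p = 0.570 in limma). Coro1a was at 9.60 and 12.3 with sunitinib and 9.68 and 9.62 with vehicle (1.31 ± 0.94, adjusted p = 0.559 in limma), and Vav1 at 7.10 and 9.54 with sunitinib and 7.59 and 7.31 with vehicle (0.87 ± 0.86, adjusted p = 0.656 in limma). In each of them the first sunitinib library lay below the vehicle libraries and the second far above. The 12 members listed as also made by lymphocytes lay a median of 1.57 above the vehicle mean in that library, all 12 of them above it. In sunitinib replicate 1 the same 12 lay a median of 0.39 below it, all 12 of them below. The 24 other members had medians of −0.42 in sunitinib replicate 1 and −0.27 in replicate 2, with 10 of the 24 above the vehicle mean in replicate 2. Those 10 were led by Wdfy4, at 7.96 and 10.3 with sunitinib and 8.34 and 8.22 with vehicle, with Ncf4, Plek and Fgr next. Whether lymphocytes make these 10 was not tested. Itgax, of the other members, was at 7.85 and 8.596 with sunitinib and 9.23 and 8.63 with vehicle (−0.71 ± 0.35, adjusted p = 0.453 in limma). Over the libraries in the order sunitinib replicate 1 and 2, then vehicle replicate 1 and 2, B cell markers summed to 10.4, 13.5, 8.55 and 9.38, and T cell markers to 9.51, 12.4, 9.87 and 9.97. The module summed to 14.0, 15.3, 14.6 and 14.3 in the same order. Thy1, the highest T cell marker in the vehicle libraries, was at 8.44 and 10.4 with sunitinib and 9.35 and 9.47 with vehicle. Of the 12 T cell markers, 9 had both sunitinib libraries above both vehicle libraries (24% of all genes). The skeletal muscle markers were low in sunitinib replicate 2, with sums of 15.8 and 12.7 in the sunitinib and 17.6 and 16.1 in the vehicle libraries. All 12 endothelial markers were negative in this tissue, with a median of −0.31, and 10 of 11 neutrophil markers were positive.

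**Figure D4:**
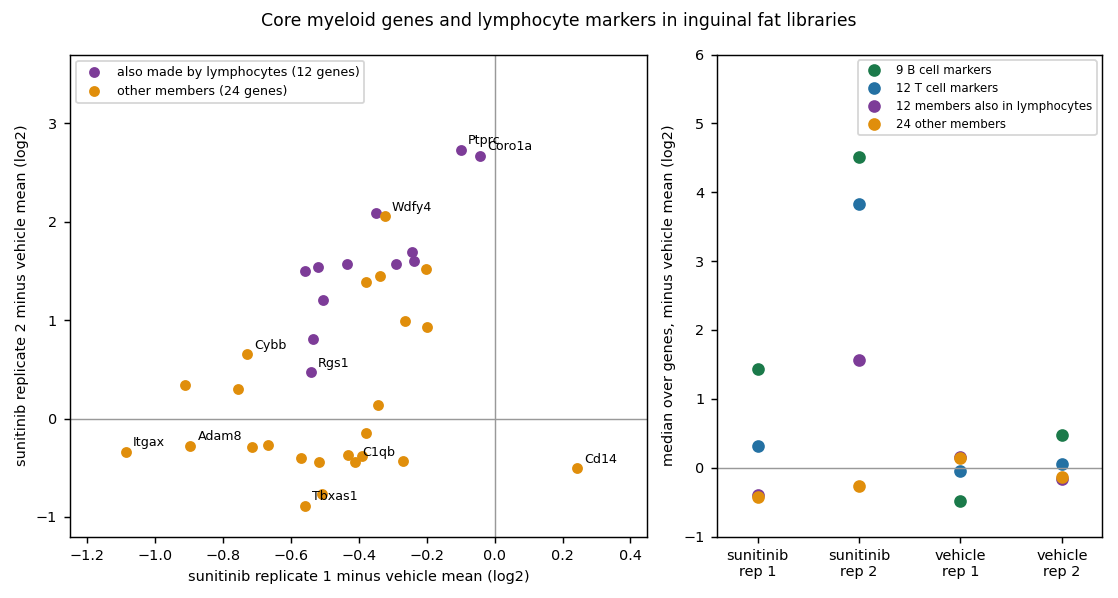
Left, each core myeloid gene in inguinal fat as sunitinib replicate 1 (horizontal) and sunitinib replicate 2 (vertical), both minus the mean of the 2 vehicle libraries (log2). Purple marks the 12 genes listed as also made by lymphocytes and orange the 24 others. Right, medians of these groups and of 9 B cell and 12 T cell markers in each library (log2, minus the vehicle mean); in sunitinib replicate 2 the purple genes are at 1.57 and the orange ones at −0.27.

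Without sunitinib replicate 2 of inguinal fat, where 1 sunitinib library stands against both vehicle libraries and is assumed to vary like them, 35 of the 36 genes lay below both vehicle libraries, against 41.1% of all genes. The median was −0.42, against −0.01 over all genes. Cybb at −0.73 (adjusted p = 0.0374 in limma) and Itgax at −1.09 (adjusted p = 0.0472 in limma) passed, among 733 genes in all (3.09% of the genes lower and 1.82% higher). The exception was Cd14, at 7.99 in sunitinib replicate 1 and 7.90 and 7.60 in the vehicle libraries. Sunitinib replicate 1 was not free of raised lymphocyte genes. All 9 B cell markers lay above both vehicle libraries in it, with Cd79a at 7.81 against 5.72 and 6.68. Without sunitinib replicate 1 in its place, 18 of the 36 passed higher and 5 lower in limma, against 16% and 11.5% of all genes, and the median turned to 0.56, with Ptprc at 2.73 above and Tbxas1 at −0.89 below vehicle. The vehicle libraries also differed from each other. Vehicle replicate 1 lay above vehicle replicate 2 in all 36 genes, by most in Adam8, which was at 9.20 and 8.08. How many of all genes tested had this order was not counted. Leaving out vehicle replicate 1 gave a module median of 0.19. Across the 36 genes, which are not independent, the difference in epididymal fat was related to that of sunitinib replicate 1 in inguinal fat (Pearson r = 0.71, Spearman rho = 0.71). It was related as closely to the difference between the inguinal vehicle libraries, replicate 2 minus replicate 1 (r = 0.77, rho = 0.73), and little to sunitinib replicate 2 (r = 0.22, rho = 0.16). Both relations share the inguinal vehicle libraries.

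In brown fat 34 of the 36 genes passed the filter on low values, Fgr and Rgs1 being under it. Of the 34, 0 passed limma's test (0% of 13044 genes), while 6 were lower and 0 higher at p below 0.05 before adjustment, against 6.98% and 9.13% of all genes. The 34 had a median of −0.08, with 31 negative. The groups did not overlap in 14 lower genes (24% of all genes) and 2 higher ones (26.2% of all genes). Mpeg1 was the most negative, at 6.36 and 6.44 in the sunitinib and 6.81 and 6.79 in the vehicle libraries (−0.40 ± 0.07, adjusted p = 0.229 in limma). Ptprc was at 5.43 and 5.67 with sunitinib and 5.78 and 5.87 with vehicle (−0.28 ± 0.10, adjusted p = 0.277 in limma), and Cd53 at 5.24 and 5.21 with sunitinib and 5.43 and 5.42 with vehicle (−0.20 ± 0.05, adjusted p = 0.235 in limma). The groups of these genes were apart, by less than in epididymal fat. The 3 positive genes were Was at 0.04 ± 0.04, Wdfy4 at 0.01 ± 0.04 and Tbxas1 at 0.00 ± 0.06. Mpeg1 passed without vehicle replicate 1 (adjusted p = 0.00872 in limma), as did Ptprc and Clec12a, and without vehicle replicate 2 (adjusted p = 0.0189 in limma). These fits called 6.29% of all genes lower without vehicle replicate 1, where 3 of the 34 were lower, and 2.2% without vehicle replicate 2, where 1 was. Vehicle replicate 2 held the most muscle RNA, as 8 skeletal muscle markers summed to 13.1 and 12.5 in the sunitinib and 11.01 and 14.9 in the vehicle libraries. It was also the highest library for C1qa, at 7.98 and 7.95 with sunitinib and 7.97 and 8.23 with vehicle. All 12 endothelial markers were positive with a median of 0.36 and 0 past the test, and summed to 13.9 and 13.8 in the sunitinib and 13.6 and 13.3 in the vehicle libraries. The part of these cells in the module's values was not tested.

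In liver, where the resident macrophages are Kupffer cells, 34 genes passed the filter and Itgax and Adam8 were under it. Of the 34, 0 passed limma's test, against 0.0726% of 12394 genes lower and 0.121% higher, and 2 were lower and 0 higher at p below 0.05 before adjustment, against 5.17% and 3.47% of all genes. The median was −0.07 with 29 negative. The groups did not overlap in 11 lower genes (19.2% of all genes) and 2 higher ones (18.3% of all genes). The libraries are sunitinib replicates 3 and 4 and vehicle replicates 1 and 2. Wdfy4 was at 4.99 and 5.14 with sunitinib and 5.29 and 5.23 with vehicle (−0.19 ± 0.06, adjusted p = 0.434 in limma), and it passed without sunitinib replicate 4 at −0.26 (adjusted p = 0.0253 in limma), where 2.25% of all genes were called lower. Mpeg1 was at 8.67 and 8.62 with sunitinib and 8.63 and 9.005 with vehicle (−0.17 ± 0.11), where vehicle replicate 2 lay above the other libraries, and Ptprc at 5.49 and 5.37 with sunitinib and 5.49 and 5.61 with vehicle (−0.12 ± 0.07). At the other end were Cd68 at 0.05 ± 0.07, Was at 0.04 ± 0.03 and Fgr at 0.04 ± 0.04. Without vehicle replicate 2 the module's median was −0.01. Of 9 neutrophil markers tested in liver, 5 were positive and 4 negative. The most negative was Il1b, at −0.22 ± 0.07. The 3 that passed were all higher and are genes of granule and calcium-binding proteins. S100a9 was at 5.68 and 5.46 with sunitinib and 5.08 and 5.04 with vehicle (0.51 ± 0.08, adjusted p = 0.0385 in limma). S100a8 stood at 0.36 ± 0.05 (adjusted p = 0.0298 in limma) and Ngp at 0.35 ± 0.04 (adjusted p = 0.0136 in limma). All 14 neutrophil markers with a row, those under the filter included, summed to 8.12 and 8.03 in the sunitinib and 7.92 and 8.04 in the vehicle livers. Their part in the module's values was not tested.

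**Figure D5:**
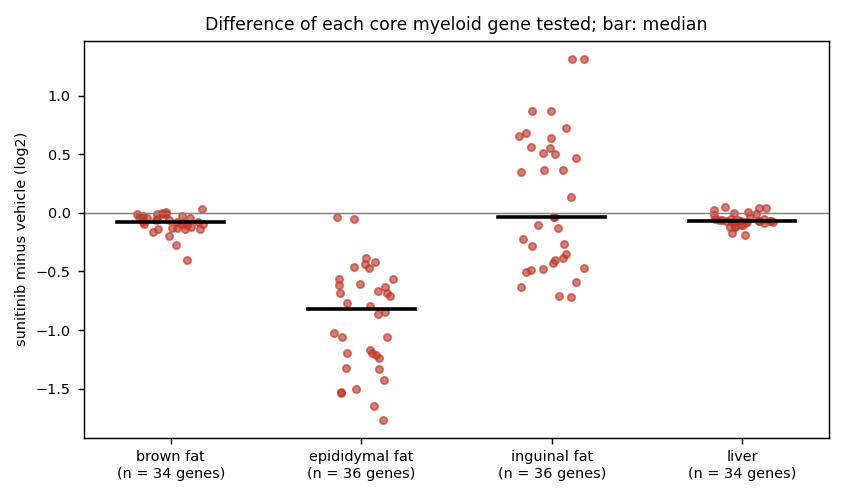
Difference between sunitinib and vehicle (log2, vertical axis) of each core myeloid gene tested in brown fat, epididymal fat, inguinal fat and liver, 2 libraries per group; points are genes and black bars medians. The epididymal genes lie lowest with a median of −0.82, the inguinal genes spread from −0.72 to 1.32, and those of brown fat and liver lie close to 0.

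Whether the sunitinib difference itself differed between tissues was tested for the pairs without epididymal fat. For inguinal minus brown fat, 0 of 34 genes passed limma's interaction test (0.0314% of 12725 genes), and 2 had an unadjusted p under 0.05 (13.6% of all genes). These were Tbxas1 at −0.72 ± 0.24 and Fcgr3 at −0.55 ± 0.20. For inguinal fat minus liver, 0 of 34 passed in limma (0.043% of 11626 genes) and the same 2 had an unadjusted p under 0.05 (13.7% of all genes), Tbxas1 at −0.71 ± 0.23 and Fcgr3 at −0.55 ± 0.19. For brown fat minus liver, 0 of 32 passed in limma (0% of 11204 genes), and Wdfy4 at 0.20 ± 0.08 had an unadjusted p under 0.05 (14.4% of all genes). Other pathway genes passed in none of these tissues, with 0 calls by limma in each of the 5 lists in brown fat, inguinal fat and liver. The smallest adjusted p among them was that of Pik3ap1, a phosphoinositide 3-kinase adaptor, at 10.1 and 10.3 in sunitinib and 9.74 and 9.72 in vehicle livers (0.45 ± 0.08, adjusted p = 0.0841 in limma). In inguinal fat Itgad was at 5.60 and 6.90 with sunitinib and 9.66 and 8.45 with vehicle (−2.80 ± 0.62, adjusted p = 0.313 in limma), where neither sunitinib library reached the vehicle libraries.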

How the data were processed

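The deposited tables, 1 per tissue, hold regularised log2 values that the authors made for each gene and library. The mm9 build and the tools DESeq2, bedtools, TopHat2 2.1.1 and bcl2fastq 2.17.1.14 are named per the submitters' processing notes. Annotation, strand setting and counting were not given in the sources used here, so antisense or overlapping genes may share reads. Groups follow the treatment labels.

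Sunitinib was compared with vehicle in each tissue with limma 3.58.1 (R 4.3.3, trended variance, 2 libraries per group) over all genes with a mean of at least 3, with Benjamini-Hochberg adjustment and a threshold of 0.05. An exact permutation test of 2 against 2 cannot go below p = 0.333. Interactions between tissues used all their libraries. The fit was tested on simulated data. Members, lists and roles were chosen with earlier results of these data known. Named in full were up to 4 members per role by size and the smallest of each role in epididymal fat, and elsewhere the 3 most positive and 3 most negative, with up to 3 genes per other list by smallest p and the 4 widest gaps between relatives. Further members are named to account for the whole module, and those singled out elsewhere were chosen after their values were seen. Summed levels are the log2 of summed 2 to the power of rlog, over all genes of a list with a row, those under the filter included. Alternatives changed the filter (none, or a mean of at least 5), scaling, variance model, replicate block and libraries. Promoters are from RefSeq (GRCm38.p6), a build other than mm9.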

Additional observations from a re-analysis of the deposited data

Results flagged for a closer look

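Wdfy4 and Was had both sunitinib libraries below both vehicle libraries in epididymal fat and above them in another tissue. Wdfy4 stood at −1.06 in epididymal fat and at 0.00953 in brown fat (log2, sunitinib minus vehicle). Was stood at −0.465 in epididymal fat, at 0.0367 in brown fat and at 0.0411 in liver. Both sunitinib libraries lay above both vehicle libraries in 2 of 34 module genes in brown fat (26.2% of all genes). In liver they did so in 2 of 34 as well (18.3% of all genes). The higher values were of low genes. Vehicle means were 3.78 for Wdfy4 and 3.68 for Was in brown fat, and 3.10 for Was in liver, with the filter at 3. Whether the differences between these tissues exceed the spread between libraries was not tested, since the genes were chosen on epididymal fat.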

How the results depend on the processing

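In epididymal fat 363 genes passed, against 210 with no filter, 569 with a mean of at least 5, 584 with a robust fit and 0 to 1121 without 1 library. Of the module's genes there, 30 passed, against 12 in a fit over all 4 tissues and 0 to 32 without 1 library, and the median ranged from −0.870 to −0.777. Quantile normalization moved Aif1 to −0.12. In brown fat 0 genes passed, against 1 in a fit over all 4 tissues and 0 to 1292 without 1 library; the module had 0 to 3 calls and a median of −0.0912 to −0.0261 without 1 library, and Tbxas1 ranged from −0.064 without vehicle replicate 1 to 0.067 without vehicle replicate 2, and was −0.036 without sunitinib replicate 2. In inguinal fat 0 genes passed, against 2425 in the fit over all 4 tissues, of which 7 were of the module, and 0 to 4103 without 1 library. There the module had 0 to 23 calls and a median of −0.42 to 0.56, which turned to 0.56 without sunitinib replicate 1 and 0.19 without vehicle replicate 1. Without sunitinib replicate 2, Coro1a turned to −0.042, Ptprc to −0.10 and Vav1 to −0.35, against 2.67, 2.73 and 2.09 in that order without sunitinib replicate 1. In liver 24 genes passed, against 3 with no variance trend, 0 in the fit over all 4 tissues and 50 to 454 without 1 library; the module had 0 to 1 calls and a median of −0.103 to −0.0092, Cd68 ranged from −0.024 without sunitinib replicate 3 to 0.125 without sunitinib replicate 4, and Mpeg1 from −0.362 without vehicle replicate 1 to 0.016 without vehicle replicate 2. The causes were not tested.

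With the replicate block, 678 genes and 31 of the module passed in epididymal fat, and 0 in brown and inguinal fat. Same-numbered libraries deviated with correlations of −0.256 in brown, 0.224 in epididymal and 0.108 in inguinal fat over 2 pairs each, so the numbers were not taken to pair the samples. With the numbers crossed, an alternative chosen after seeing the data, 0 genes passed in brown fat. For liver alone, no paired analysis was possible because the titles number sunitinib 3 and 4 and vehicle 1 and 2.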

Other observations

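Outside the module and its lists, the genes closest to the module's mean over the 16 libraries, after centring each tissue, were Lat2 (Pearson r = 0.990), Rgs10 (r = 0.988), Snx5 (r = 0.975), Atp8b4 (r = 0.974), Casp1 (r = 0.971), Tnfrsf1b (r = 0.968), Pip4k2a (r = 0.964), Ly86 (r = 0.963), Cd84 (r = 0.955) and Soat1 (r = 0.953), among 11113 genes tested in all 4 tables. Lat2 encodes an adaptor of myeloid and B cell receptors, Casp1 the inflammasome protease and Soat1 an enzyme that esterifies cholesterol. Without the 4 epididymal libraries r was 0.986 for Lat2 and 0.901 for Soat1 over 12 libraries. These libraries share tissue and tables, and the inguinal library richest in lymphocyte genes is among them.

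Sfpi1, listed by RefSeq as an older symbol of Spi1 and outside the rule, was at 4.37 and 4.36 in the sunitinib and 4.53 and 4.505 in the vehicle libraries of epididymal fat. In inguinal fat it was at 4.12 and 4.36 with sunitinib and 4.39 and 4.35 with vehicle, where the groups overlapped.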
